A study of Mus musculus with 11 samples.

Results

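The nuclear lamina and envelope genes examined here were 10 genes of the deposited count table, given as a list of names with no threshold on their values: Lmna, Lmnb1 and Lmnb2, which encode the lamins, Zmpste24, Lbr, Emd, Tmpo, Banf1, Sun1 and Sun2. All 10 were found among the 28222 genes of the table, and all 10 passed the filter on low counts in every comparison. The data were 11 RNA-seq libraries of bone-derived mouse mesenchymal stem cells (MSCs, stromal cells that can form bone, fat and cartilage), all cultured at 2% oxygen. Young mice were 3 to 5 months and old mice 18 to 22 months of age. The labels divided the libraries into batch A with 4 young libraries, batch B with 2 young and 2 old libraries, and batch C with 3 old libraries, so that age and batch could be separated only within batch B. No strain, genotype or treatment distinguished the groups in the labels, and the methods of the study, which are written for its oxygen comparison, describe male C57BL/6N mice and a sort for Sca-1+ and CD140a+ cells without the blood markers CD45 and TER-119. The labels do not say whether libraries of a group came from separate animals, and p-values therefore measure only the spread between libraries, which may be partly technical.

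The lamina is a meshwork of lamin filaments under the inner nuclear membrane. A-type lamins (Lmna, which gives lamin A and lamin C by alternative splicing) scale with the stiffness of a tissue and are low in many stem cells and high in muscle and bone, whereas B-type lamins (Lmnb1, Lmnb2) stay farnesylated and membrane-bound, and loss of Lmnb1 is widely used as a sign of senescence. Prelamin A is trimmed by the membrane protease Zmpste24, and failure of this step gives progeroid disease with bone loss in mice and humans. Lamins and membrane proteins together hold heterochromatin at the periphery: Lbr binds B-type lamins and heterochromatin protein 1 and is also a sterol reductase, Emd (emerin) and Tmpo (the lamina-associated polypeptides 2) carry the LEM domain that binds Banf1, the small DNA-binding protein BAF, and Sun1 and Sun2 connect the lamina to nesprins and through them to the cytoskeleton.

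Promoter sequences of 9 members (all but Lmnb1) were taken from RefSeq (GRCm38.p6, 300 bases from 250 before to 50 after the start). The sequence before the start is shown for Emd, the member with the second largest fall in batch C, and for Tmpo and Sun1, which rose in the same comparison, so that members with opposite changes can be read side by side. These windows overlap no annotated exon, although that of Tmpo lies inside the Ensembl gene, which begins further upstream. Capitals mark GGGCGG, the core of the Sp1 site, and CCAAT, the NF-Y site, on either strand (CCGCCC and ATTGG are the same motifs on the other strand).
Emd chrX:74254437-74254686, plus strand: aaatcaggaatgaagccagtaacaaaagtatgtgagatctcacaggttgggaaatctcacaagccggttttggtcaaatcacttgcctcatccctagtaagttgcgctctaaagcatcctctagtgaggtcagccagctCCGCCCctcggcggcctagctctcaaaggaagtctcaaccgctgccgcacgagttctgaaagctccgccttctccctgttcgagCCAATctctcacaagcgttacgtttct
Tmpo chr10:91171620-91171869, minus strand: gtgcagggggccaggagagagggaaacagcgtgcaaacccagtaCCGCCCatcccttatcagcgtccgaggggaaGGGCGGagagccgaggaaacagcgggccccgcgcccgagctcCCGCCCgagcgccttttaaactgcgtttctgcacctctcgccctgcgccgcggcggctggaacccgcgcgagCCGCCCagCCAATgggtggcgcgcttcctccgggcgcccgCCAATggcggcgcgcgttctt
Sun1 chr5:139200387-139200636, plus strand: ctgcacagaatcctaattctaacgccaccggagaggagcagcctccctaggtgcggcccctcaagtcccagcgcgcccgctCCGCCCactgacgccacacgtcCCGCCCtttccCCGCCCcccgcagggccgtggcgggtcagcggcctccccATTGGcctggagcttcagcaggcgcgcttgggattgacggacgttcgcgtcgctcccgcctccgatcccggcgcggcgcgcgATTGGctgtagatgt
In these 250 bases Emd had 1 GGGCGG and 1 CCAAT, Tmpo 4 and 2, and Sun1 3 and 2, and GC content was 51.2%, 70.8% and 70.0%. Of the other members that were lower in batch C, Banf1 had 1 and 1 (GC 62.8%), Zmpste24 0 and 1 (56.0%) and Lbr 1 and 2 (69.6%). Of those that were higher, Lmnb2 had 1 and 0 (52.8%) and Sun2 4 and 2 (70.8%). A link between these letters and the changes was not tested. Over the whole 300-base windows, GGGCGG was found in 8 of 9 members (all but Zmpste24) and in 35.9% of 27025 promoters, and CCAAT in 7 of 9 (all but Lmna and Lmnb2) and in 37.9%. The E2F motifs TTTCGCGC, TTTGGCGC and TTTCCCGC, searched on both strands as motifs of cell cycle promoters, matched only Banf1 (1.91% of all promoters), and TTTGAA, the cell cycle homology motif, matched Lbr, Sun2 and Zmpste24 (18.1%). The GGGCGG and E2F matches in Banf1 overlap. A match describes the letters and not a bound site.

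Coordinates of the members are given on the GRCm38 assembly. Lmna (ENSMUSG00000028063) lies at chr3:88480147-88509956 on the minus strand, Lmnb1 (ENSMUSG00000024590) at chr18:56707813-56753424 on the plus strand and Lmnb2 (ENSMUSG00000062075) at chr10:80901203-80918245 on the minus strand. Zmpste24 (ENSMUSG00000043207) lies at chr4:121059237-121098241 on the minus strand and Lbr (ENSMUSG00000004880) at chr1:181815335-181843046 on the minus strand. Emd (ENSMUSG00000001964) lies at chrX:74254687-74261548 on the plus strand, Tmpo (ENSMUSG00000019961) at chr10:91147571-91181315 on the minus strand and Banf1 (ENSMUSG00000024844) at chr19:5364638-5367168 on the minus strand. Sun1 (ENSMUSG00000036817) lies at chr5:139200637-139249840 on the plus strand and Sun2 (ENSMUSG00000042524) at chr15:79724070-79742536 on the minus strand. All are protein-coding. The longest annotated transcript was shortest for Banf1 (1261 nt) and Emd (1595 nt) and lay between 2843 nt (Lmnb1) and 4441 nt (Tmpo) for the other 8. Counts are per gene, so that lamin A and lamin C, or the isoforms of Tmpo, were not separated. It is not stated whether the counting used strand, and part of the exonic sequence is shared with other genes, most in Banf1, where 28.61% of the exonic bases overlap Eif1ad on the opposite strand, followed by Emd with 13.63% (Gm14686, same strand) and Lbr with 10.69% (mainly Dnah14, opposite strand).

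Libraries held between 11969336 and 20315934 counts, and the least counted member, Lmnb2, still had 163 to 384 counts, so that no member was near the floor. Relative to the level, counting error was largest for Lmnb2, and its part in the spread between libraries was not separated. A level of 3 counts corresponded to 0.156 to 0.253 CPM (counts per 1000000 counts of the library, with totals scaled by TMM factors). No library was a copy of another. The labelled cell type was set against its markers: the 11 MSC markers summed to 35700 to 99700 CPM, whereas 6 endothelial markers summed to 2.6 to 10.6 CPM (Emcn was at 0 in batch A and in batch B old), and skeletal muscle markers to 26.1 to 64.6 CPM, with Myod1 and Pax7 at 0 in batch A and in batch B old. Osteoclast markers summed to 112 to 173 CPM, with Calcr at 0 in batches A and B, and Dcstamp at 0 in batch B young and batch C. In every library Col1a1 and Col1a2 made up most of the MSC sum, Acta1 most of the muscle sum and Ctsk most of the osteoclast sum. These sums therefore say little about the other markers of those lists. As a mean log2 CPM per list, with the collagen genes included, MSC markers were at 8.52 to 9.1 and haematopoietic markers at 2.64 to 6.12. The sort for blood-free cells notwithstanding, 14 haematopoietic markers were all detected, at 783 to 1770 CPM in batch A, 434 to 894 in batch B young, 898 to 1280 in batch B old and 152 to 179 in batch C. In such bulk samples, fewer cells of a type and less RNA per cell cannot be told apart. The 2 young libraries of batch B differed from each other more than any other pair of replicates (chi-square per gene 48.5, other pairs 3.07 to 22.1).

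Lmna was by far the most abundant member (plot of levels by library). Per kilobase of the longest transcript, its mean over the 11 libraries was 170 ± 23.6 CPM per kb (SD, n = 11), above every other member in 11 of 11 libraries, and its mean CPM stood at percentile 99.4 of the genes in the table. Banf1 (48.2 ± 17), Emd (37.6 ± 8.86), Sun2 (32.2 ± 9.67) and Zmpste24 (29.2 ± 5.64 CPM per kb) followed. Their order was not fixed: Banf1 was above Emd in 9 of 11, Emd above Sun2 in 6 of 11 and Sun2 above Zmpste24 in 7 of 11 libraries. Sun1 (15.7 ± 2.05) and Tmpo (14 ± 2.75) were lower, and Sun1 was above Tmpo in 8 of 11 libraries. Lmnb1 (8.16 ± 2.32) and Lbr (7.59 ± 1.18), in this order in only 7 of 11 libraries, and Lmnb2 (4.77 ± 1.15 CPM per kb) were lowest. Zmpste24 was above Sun1, Tmpo above Lmnb1, and Lbr above Lmnb2 in all 11.

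**Figure D1:**
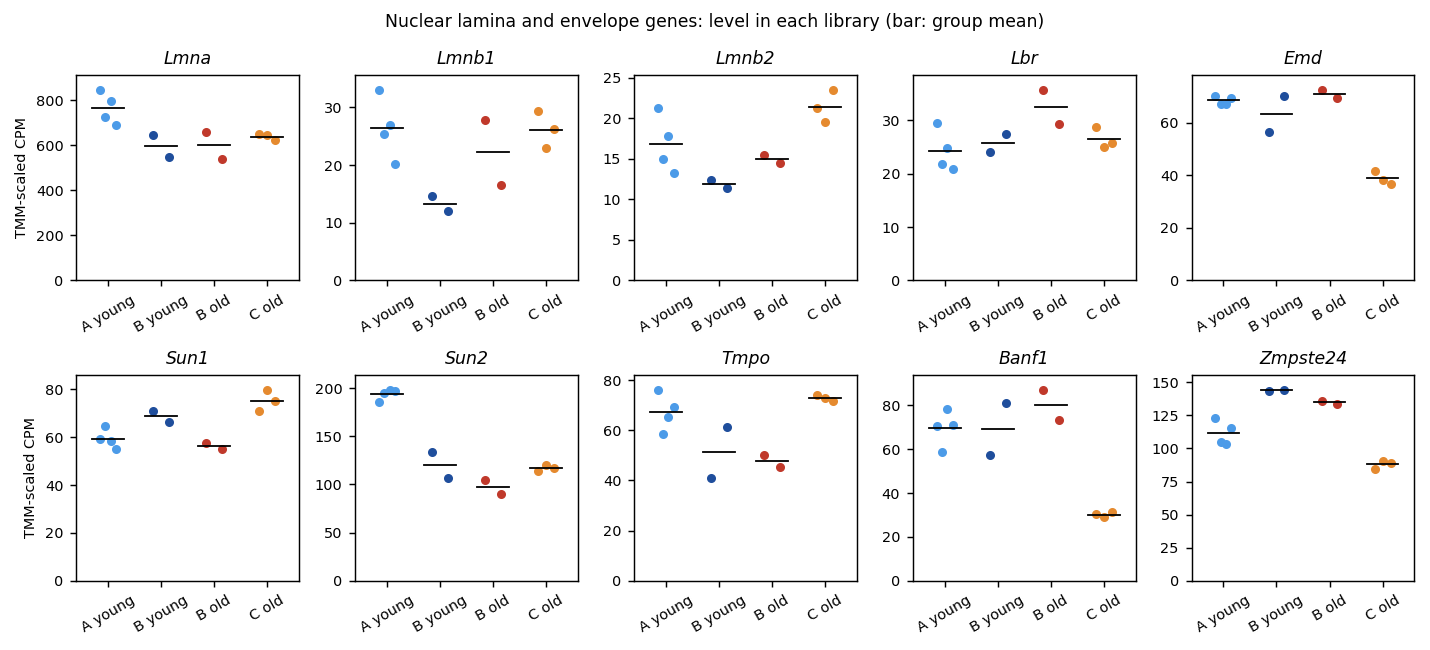
Level of each of the 10 genes (TMM-scaled CPM, y axis from 0, own scale per gene) in the 11 libraries by group. Points are libraries and bars group means. Banf1, Emd and Zmpste24 are lowest in all 3 batch C libraries, Sun2 is highest in the 4 batch A libraries, and Lmnb1 is lowest in the 2 young libraries of batch B.

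The first comparison asked whether the lamina genes changed with age. All 11 libraries entered the fit together with a batch term, which leaves the age difference to batch B. None of the 10 members passed the threshold (edgeR quasi-likelihood test, Benjamini-Hochberg adjusted p under 0.05), against 2.23% of all 16132 genes tested (0.694% higher and 1.54% lower in old). Limma-trend and DESeq2 also called 0 of 10, and the smallest adjusted p of a member was 0.128 with edgeR, 0.146 with limma-trend and 0.0556 with DESeq2. At an unadjusted p under 0.05 there were 3 of 10 members, Lmnb1, Sun1 and Sun2, against 16.1% of all genes tested. The median log2 fold change of the members was 0.09, compared with 0 for all genes, and the median size was 0.25, compared with 0.21.

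Among the lamins, Lmnb1 gave the largest estimate of the members. It was measured at 14.6 and 12.04 CPM in the young and at 27.9 and 16.6 CPM in the old libraries of batch B. Both old libraries were above both young libraries, but the lower old library was closer to the young libraries than to the other old library. The fitted log2 difference was 0.73 (SE 0.24, 95% interval 0.23 to 1.23, edgeR adjusted p = 0.128). It was 0.32 (edgeR adjusted p = 0.705) without batch B old replicate 1 and 1.06 (edgeR adjusted p = 0.0393) without batch B old replicate 2. Old cells of batch B are then a single library, which the fit assumes to vary like the other groups. Mitochondrial transcripts took 3.74% of the counts of batch B old replicate 1, the library with the higher Lmnb1, and 0.711 to 1.85% in the other 10 libraries, and the part of this difference in Lmnb1 was not tested. Lmnb2 was measured at 12.4 and 11.4 CPM in young and 15.4 and 14.5 CPM in old (log2 fold change 0.33, interval -0.07 to 0.74). Lmna overlapped between ages, with 646 and 546 CPM in young and 659.5 and 539.8 CPM in old, and a log2 fold change of 0.01 (interval -0.28 to 0.3). Its sign depended on single libraries, being -0.13 without batch B old replicate 1 and -0.11 without batch B young replicate 2.

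Transcripts of the SUN proteins, which anchor nesprins in the nuclear envelope, had lower levels in old libraries without passing the threshold. Sun1 was at 71.2 and 66.3 CPM in young and at 57.8 and 55.2 CPM in old, so that the groups did not overlap (log2 fold change -0.28, SE 0.11, edgeR adjusted p = 0.201). Sun2 was at 134 and 106 CPM in young and at 105 and 90.2 CPM in old (-0.30, SE 0.12, edgeR adjusted p = 0.221). Both old values of Sun2 lay below both young values, the nearest pair being 106 and 105 CPM. With the correction for length and GC content described below, the values were -0.25 for Sun1 and -0.17 for Sun2 (edgeR adjusted p = 0.153 and 0.346). Without batch B young replicate 2 the difference in Sun2 was -0.46 with an edgeR adjusted p of 0.016, in a fit that assumes the single young library left in batch B to vary like the other groups.

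The remaining members did not pass either, and their intervals included 0. Lbr was at 24.0 and 27.5 CPM in young and 35.7 and 29.3 CPM in old (0.34, interval 0 to 0.68), and Zmpste24 at 144 in both young libraries and 136 and 134 CPM in old (-0.09, interval -0.32 to 0.14). Emd was at 56.4 and 70.2 CPM in young and 72.5 and 69.3 CPM in old (0.17, interval -0.08 to 0.41), Tmpo at 41.0 and 61.3 and at 49.97 and 45.3 (-0.10, interval -0.43 to 0.24), and Banf1 at 57.5 and 81.3 and at 87.0 and 73.2 CPM (0.21, interval -0.12 to 0.54). In each of Emd, Tmpo and Banf1 the young and old libraries overlapped. The sign turned for Tmpo without batch B young replicate 2 (0.21) and for Banf1 without batch B young replicate 1 (-0.02). In all, 6 of 10 members (Lmnb1, Lmnb2 and Lbr higher, Sun1, Sun2 and Zmpste24 lower) did not overlap between ages, and 39.7% of all genes tested did not overlap in either direction.

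Other transcripts moved beside the lamins in this comparison. All 22 cell cycle genes were higher in old than in young libraries of batch B (median log2 fold change 0.57, 12 at an unadjusted p under 0.05, 0 past the threshold), with Birc5 (1.12), Ccnb2 (0.81) and Aurka (0.91) having the smallest p. The mean log2 CPM of this list was 3.78 and 3.94 in young and 4.69 and 4.17 in old, and of the old libraries the first had both the higher Lmnb1 and the higher list. All 14 haematopoietic markers were higher in old (median 0.70, 0 past the threshold), and 10 of 11 MSC markers were lower, 2 of them past the threshold (Pdgfra, -0.86, and Nt5e, -1.34, edgeR adjusted p = 0.00591 and 0.00932). Acp5 of the osteoclast list (1.92) and Des of the skeletal muscle list (2.15) were higher past the threshold, at 4.6 and 3.79 CPM in old. Of the 3 endothelial markers tested, 0 passed. The part of these transcripts in the differences of the members was not tested. The 9 senescence genes gave 5 higher and 4 lower with 0 past the threshold, and at an unadjusted p under 0.05 both Glb1 (-0.33) and Gdf15 (-0.51) were lower in old.

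The wider nuclear envelope showed as few calls with age as the members. Of 4 enzymes of lamin processing, 13 further inner membrane proteins, 4 nesprins, 11 lamina-linked chromatin proteins, 27 nucleoporins and 8 proteins of envelope sealing, 0 of the 67 genes tested passed the threshold (edgeR), and 5 had an unadjusted p under 0.05, a level reached by 16.1% of all genes: Fntb (-0.35), a farnesyltransferase subunit, Tor1aip1 (-0.39), which encodes the lamin-binding protein LAP1, Tmem201 (-0.37), which encodes SAMP1, Syne3 (-0.41), the nesprin that binds plectin, and Nup50 (0.31), a nucleoporin of the nuclear basket. The median log2 fold change was -0.07 for lamin processing, -0.09 for inner membrane proteins, 0.02 for nesprins, 0 for chromatin proteins, 0.07 for nucleoporins and 0.02 for envelope sealing, compared with 0 for all genes.

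**Figure D2:**
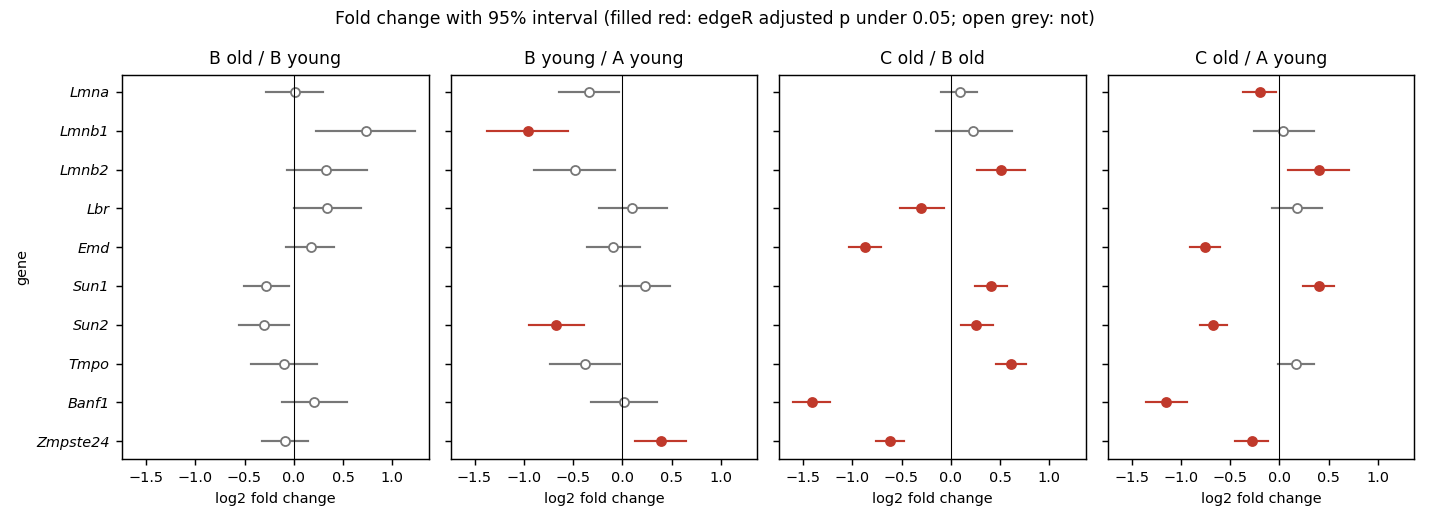
Log2 fold change (x axis) of each gene with its 95% interval in 4 comparisons. Filled red points passed the threshold (edgeR adjusted p under 0.05) and open grey points did not. No gene passed for age within batch B, 3 passed between batches B and A in young, 8 between C and B in old, and 7 between C old and A young.

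When old was compared with young without the batch term, 1 of 10 members passed, against 18.0% of 14689 genes tested (8.65% lower). This was Sun2, with 186, 195, 198, 198, 134 and 106 CPM in young and 105, 90.2, 114, 121 and 118 CPM in old libraries. All old libraries lay below all batch A libraries, but the 3 batch C libraries lay between the 2 young libraries of batch B, so that the groups overlapped (log2 fold change -0.61, SE 0.17, edgeR adjusted p = 0.0309). The call was lost when any single library of batch A or C was left out (edgeR adjusted p = 0.0641 to 0.0743). Without batch B old replicate 1, Banf1 also passed (-0.74, edgeR adjusted p = 0.0484). No member was without overlap between all young and all old libraries, compared with 7.32% of genes tested. Age and batch differ together in this comparison.

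The batches were then compared at constant age. In young libraries, batch B differed from batch A in 3 of 10 members, against 18.1% of 14840 genes tested (9.39% higher and 8.71% lower). Lmnb1 was at 33.1, 25.4, 26.9 and 20.1 CPM in batch A and at 14.6 and 12.04 CPM in batch B. All batch A libraries were above both batch B libraries, and Lmnb1 was lower in batch B (log2 difference -0.96, SE 0.19, edgeR adjusted p = 0.0063), or -0.83 with an adjusted p of 0.078 without batch B young replicate 2. Sun2 was at 186, 195, 198 and 198 CPM in batch A and at 134 and 106 CPM in batch B, without overlap, and was lower in batch B (-0.67, SE 0.13, edgeR adjusted p = 0.00557). With length and GC content corrected, the differences were -0.34 for Sun2 and -0.85 for Lmnb1 (edgeR adjusted p = 0.0261 and 0.0154). Zmpste24, the prelamin A protease, was the member that rose, from 123, 105, 103 and 115 to 144 CPM in both libraries (0.39, SE 0.12, edgeR adjusted p = 0.0415). The call in Zmpste24 was lost without batch A replicate 2, 3 or 4 or batch B young replicate 2 (edgeR adjusted p = 0.087 to 0.139), and with the correction for length and GC content described below (0.10, edgeR adjusted p = 0.502). Without 1 of the young libraries of batch B, here and in the values that follow, the other is assumed to vary like batch A.

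The other lamins pointed the same way as Lmnb1 between these batches without passing in the fit of these libraries alone. In a fit of the 4 groups over all libraries, Lmna (-0.36), Lmnb2 (-0.51) and Tmpo (-0.40) passed (edgeR adjusted p = 0.0375, 0.0355 and 0.0431). The values that follow are from the fit of these batches. Lmna was at 846, 725, 796 and 688 CPM in batch A and 646 and 546 CPM in batch B (-0.34, SE 0.14, edgeR adjusted p = 0.11) with -0.46 and an edgeR adjusted p of 0.0409 without batch B young replicate 1. Lmnb2 was at 21.3, 14.9, 17.8 and 13.2 CPM in batch A (-0.48, SE 0.19, edgeR adjusted p = 0.0974). Tmpo was at 76.0, 58.6, 65.4 and 69.3 CPM in batch A and, as given above, at 41.0 and 61.3 CPM in batch B (-0.38, SE 0.17, edgeR adjusted p = 0.128), with -0.70 and an edgeR adjusted p of 0.0404 without batch B young replicate 2. Lbr (0.10), Emd (-0.09), Sun1 (0.23) and Banf1 (0.02) did not pass, and the sign of Emd and Banf1 turned without a single library (Emd 0.06 without batch B young replicate 1, Banf1 -0.06 without batch A replicate 2 and -0.26 without batch B young replicate 2). In total, 6 members did not overlap between the batches (Lmna, Lmnb1, Lmnb2 and Sun2 lower, Sun1 and Zmpste24 higher in B), compared with 40.9% of genes tested.

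The cell cycle list fell with Lmnb1 between these batches. All 22 genes were lower in batch B young than in batch A (median log2 fold change -1.03), 18 of them past the threshold, such as Plk1 (-1.74) and Mki67 (-1.67). The mean log2 CPM of the list was 4.51 to 5.40 in batch A and 3.78 to 3.94 in batch B young. Haematopoietic markers were also lower in all 14 genes, 7 of them past the threshold (median -1.12). Of 9 senescence genes 5 were higher and 4 lower, and 2 passed, where 18.1% of all genes tested did so. These were the cyclin-dependent kinase inhibitors Cdkn2a (0.87) and Cdkn2b (0.45), both higher. Whether these differences and that of Lmnb1 have a common source was not tested. Nesprins fell: Syne1 by 0.69, Syne2 by 1.47 and Syne3 by 0.43 on the log2 scale, while Syne4 was not tested after filtering. These 3 passed the threshold, as did 8.71% of all genes tested in this direction. Over all genes the median log2 fold change was -0.29 for transcripts above 10000 nt, the class of Syne1 and Syne2. It was -0.1 from 5001 to 10000 nt, the class of Syne3. The part of transcript length in the fall of the nesprins was not tested. Of 27 nucleoporins, 5 passed, where 18.1% of all genes tested did so. Sec13 (0.78) and Seh1l (0.38) were higher and Nup214 (-0.75), Pom121 (-0.77) and Ndc1 (-0.57) lower. Of the remaining envelope lists Fnta (0.59), the shared subunit of the prenyltransferases, and Chmp3 (0.38), a subunit of the membrane-sealing ESCRT-III complex, rose and Nrm (-0.79), Tmem201 (-0.60) and Ehmt2 (-0.43), a histone H3 lysine 9 methyltransferase, fell.

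Batch C differed from batch B in old libraries in 8 of 10 members, 4 higher and 4 lower, but here 64.7% of 15651 genes passed (32.1% higher and 32.6% lower), and the median size of the change was 0.46 for the members and 0.56 for all genes. Banf1, Emd, Zmpste24 and Lbr were lower in batch C. Banf1 was at 87.0 and 73.2 CPM in batch B old and at 30.3, 29.0 and 31.3 CPM in batch C. All 3 batch C libraries lay close together and well below both batch B libraries, and the log2 difference of -1.41 (SE 0.08, edgeR adjusted p = 5e-08) was the largest of the members. Emd fell from 72.5 and 69.3 to 41.8, 38.2 and 36.8 CPM (-0.87, SE 0.07, edgeR adjusted p = 9.07e-07). Transcripts of Emd and Banf1 ran together over the 11 libraries (Pearson r = 0.97 of log2 CPM, over libraries that share batches), while r was 0.64 once the 4 group means had been subtracted. Tmpo, which also has the domain that binds BAF, had r = -0.40 with Emd and -0.45 with Banf1 over the libraries. After the subtraction these were 0.84 and 0.82. The young libraries of batch B, the pair of replicates that differed most, were apart in each of these genes. Replicates 1 and 2 had 41.0 and 61.3 CPM for Tmpo, 56.4 and 70.2 for Emd, and 57.5 and 81.3 for Banf1. The part of this pair, of binding or of transcript length in these r values was not tested. Zmpste24 fell from 136 and 134 to 84.5, 90.5 and 89.4 CPM (-0.62, SE 0.06, edgeR adjusted p = 3.9e-06). Lbr was lower by a smaller amount, with 28.7, 25.0 and 25.8 CPM in batch C (-0.30, SE 0.10, edgeR adjusted p = 0.0233). This call was lost without batch C replicate 2 or 3 (edgeR adjusted p = 0.092 and 0.0838). It was also lost in a fit of the 4 groups over all libraries (-0.30, edgeR adjusted p = 0.0988) and with scaling by total counts (-0.10, edgeR adjusted p = 0.385). Without batch B old replicate 1 the value was -0.15, where the single batch B library left is assumed to vary like batch C.

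Tmpo, Lmnb2 and both SUN genes were higher. Tmpo was at 49.97 and 45.3 CPM in batch B old and at 74.1, 73.0 and 71.6 CPM in batch C (0.61, SE 0.07, edgeR adjusted p = 1.16e-05). Lmnb2 was at 15.4 and 14.5 CPM in batch B old and at 21.3, 19.5 and 23.5 CPM in batch C (0.51, SE 0.11, edgeR adjusted p = 0.00152). Sun1 rose from 57.8 and 55.2 to 71.0, 79.7 and 75.2 CPM (0.41, SE 0.07, edgeR adjusted p = 0.000356). Sun2 was at 105 and 90.2 CPM in batch B old and at 114, 121 and 118 CPM in batch C (0.26, SE 0.08, edgeR adjusted p = 0.00884), and this call was lost without batch B old replicate 2 (0.15, adjusted p = 0.0988). Lmna, at 649.7, 644 and 622 CPM in batch C, and Lmnb1, at 29.4, 22.9 and 26.3 CPM, overlapped with batch B old (0.09, interval -0.10 to 0.27, and 0.23, interval -0.15 to 0.62). With scaling by total counts Lmna (0.28) and Lmnb1 (0.43) passed (edgeR adjusted p = 0.0119 and 0.0476). Both depended on which batch B library was used: without replicate 1 the values were 0.24 for Lmna (edgeR adjusted p = 0.00967) and 0.66 for Lmnb1 (edgeR adjusted p = 0.000317), and without replicate 2 the signs turned (-0.06 and -0.10). In these fits, as in that of Sun2, batch B old is a single library assumed to vary like batch C. The 8 members that passed did not overlap between the batches, compared with 76.3% of genes tested.

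The change between batches B and C varied with transcript length over all genes (plot of change against length). The median log2 fold change was -0.69 for genes with transcripts of up to 1000 nt, -0.36 from 1001 to 1500 nt, -0.23 from 1501 to 2000 nt, -0.06 from 2001 to 3000 nt, 0.02 from 3001 to 4000 nt, 0.13 from 4001 to 5000 nt, 0.35 from 5001 to 10000 nt and 0.84 above 10000 nt. Banf1 and Emd, with the shortest transcripts of the members, were therefore set against genes of their own length class, and both lay below its median. When length and GC content were corrected in each library with a loess surface, Banf1 (-1.13), Emd (-0.69), Zmpste24 (-0.67), Lbr (-0.33), Tmpo (0.49) and Sun1 (0.25) remained past the threshold. The share of all genes called with this correction is not given here, so that such calls have no share beside them. Lmnb2 was no longer called (0.21, edgeR adjusted p = 0.109), and the signs of Sun2 (-0.12, edgeR adjusted p = 0.145) and Lmna (-0.10) turned, so that the direction of Sun2 between these batches depends on this correction. Eif1ad, which shares exonic bases with Banf1 on the opposite strand, was also lower in batch C (-0.78, SE 0.11, edgeR adjusted p = 8.05e-05), and without strand the reads of the shared part cannot be told apart. The haematopoietic markers were lower in batch C in all 14 genes past the threshold (median -2.63), and 14 of 22 cell cycle genes were higher past the threshold, led by Mki67 (2.39) and Cenpf (2.11). The part of these transcripts in the differences was not tested.

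**Figure D3:**
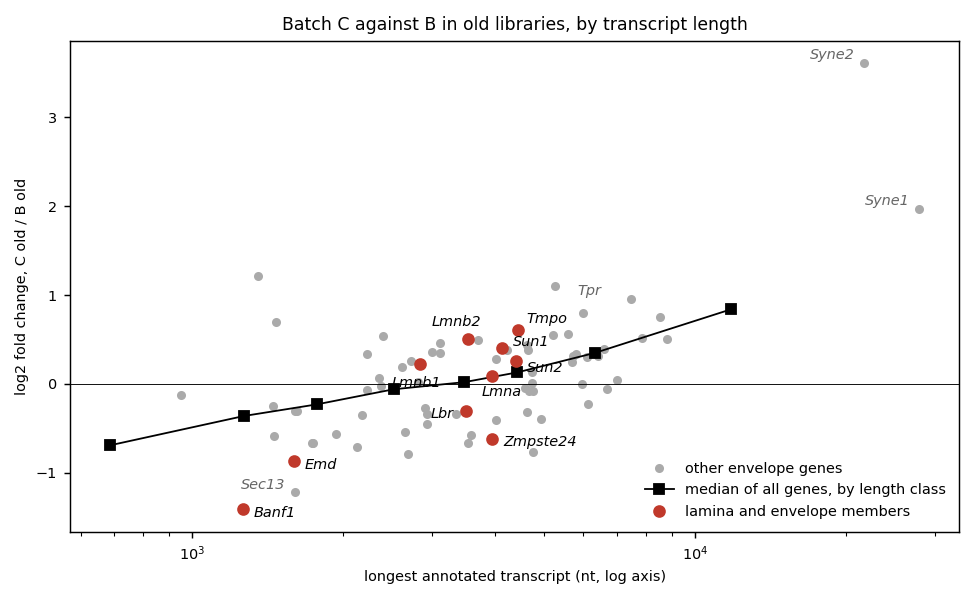
Log2 fold change of batch C old over batch B old (y axis) against the longest annotated transcript in nt (x axis, log scale). Red points are the 10 members, grey points other envelope genes, and black squares the median of all genes in 8 length classes, from -0.69 to 0.84. Banf1 and Emd lie below the medians of their class, Syne1 and Syne2 far above.

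The nesprins, partners of the SUN proteins, had the largest median change of the 6 other envelope lists between batches B and C (1.59). Syne2 (nesprin-2) rose from a mean of 2.48 to 30.7 CPM (log2 fold change 3.61, edgeR adjusted p = 2.33e-08) and Syne1 (nesprin-1) from 28.7 to 113 CPM (1.97, edgeR adjusted p = 7.01e-07). Both have transcripts of over 10000 nt, and after the correction for length and GC content, chosen for these genes after their values were seen, the changes were 2.63 and 0.91. Syne3 also rose from 50.2 to 108 CPM (1.10), and 3 of 4 nesprins passed with and without the correction. Of 26 nucleoporins tested, 13 were higher and 8 lower past the threshold, with Tpr (0.96) and Nup155 (0.52) rising and Sec13 (-1.22) and Nup50 (-0.77) falling. With the correction these counts became 4 and 9, for which no share of all genes is given. Without it, 32.1% of all genes tested were higher and 32.6% lower past the threshold, and the counts of each list stand beside these shares. Lamin processing fell in 3 of 4 genes (Fnta -0.56, Rce1 -0.58 and Icmt -0.39, the last 2 acting on the farnesylated end of prelamin A and B-type lamins), and envelope sealing fell in 5 of 8, such as Chmp3 (-0.54) and Vps4b (-0.31). Inner membrane proteins were mixed, with 5 higher (Ankle2 0.55) and 4 lower (Tmem38a -0.71), and lamina-linked chromatin proteins gave 7 higher, such as Ahctf1 (0.75) and Cbx5 (0.51), and 2 lower, Hdac3 (-0.57) and Cbx3 (-0.34).

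Old libraries of batch C were also compared with young libraries of batch A. This uses no library of batch B, and age and batch cannot be told apart in it. Here 7 of 10 members passed, against 63.8% of 15021 genes tested (31.9% in each direction). Banf1 (-1.15), Emd (-0.75), Sun2 (-0.67), Zmpste24 (-0.28) and Lmna (-0.20) were lower and Lmnb2 (0.40) and Sun1 (0.40) higher in batch C old. Banf1 was at 70.8, 58.7, 78.2 and 70.9 CPM in batch A, above the 3 values of batch C (SE 0.09, edgeR adjusted p = 5.84e-07). Emd was at 70.2, 67.2, 67.0 and 69.4 CPM in batch A and likewise apart (SE 0.07, edgeR adjusted p = 1.72e-06). Sun1 was at 59.4, 64.7, 58.3 and 55.1 CPM in batch A, below all 3 libraries of batch C (SE 0.07, edgeR adjusted p = 0.000404). In Sun2 all batch A libraries exceeded all of batch C (SE 0.06, edgeR adjusted p = 2.08e-06). The call in Lmna (edgeR adjusted p = 0.0445) was lost without batch A replicate 1 or 3 or any library of batch C (0.0713 to 0.131), and that in Lmnb2 (edgeR adjusted p = 0.0257) without batch A replicate 2 or 4 or batch C replicate 1 or 3 (0.0647 to 0.121). Scaling by total counts turned the signs of Lmna (0.09) and Zmpste24 (0.01). Lmnb1 (0.04, interval -0.26 to 0.35), Lbr (0.18) and Tmpo (0.17) did not pass, Lbr and Tmpo doing so without batch A replicate 1 (0.29 and 0.23, edgeR adjusted p = 0.0175 and 0.0164), and the sign of Lmnb1 turned without batch A replicate 4 or batch C replicate 1 (-0.06 in both). With scaling by total counts Lmnb1 (0.34), Lbr (0.47) and Tmpo (0.46) passed (edgeR adjusted p = 0.0433, 0.00227 and 0.00029). Of the members, 6 did not overlap, compared with 64.5% of genes tested.

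Transcript length and cell type markers also moved in this comparison. Over all genes tested the median difference was -0.48 (log2) for transcripts of up to 1000 nt, -0.24 from 1001 to 1500 nt, -0.12 from 1501 to 2000 nt and 0.48 above 10000 nt. With the correction for length and GC content Banf1 (-0.85), Emd (-0.60), Sun2 (-0.62), Zmpste24 (-0.74), Lmnb2 (0.46) and Sun1 (0.39) were past the threshold and Lmna was not (-0.17, edgeR adjusted p = 0.0644). All 14 haematopoietic markers were lower in batch C old, each past the threshold (median -3.10), 9 of 11 MSC markers passed, 3 higher and 6 lower, and 8 of 22 cell cycle genes passed, 6 higher and 2 lower. The part of these transcripts in the differences of the members was not tested.

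Since batch C old was set against batch A young here and against batch B old above, both comparisons use the batch C libraries and are not independent. Side by side, Banf1 was -1.41 against batch B old and -1.15 against batch A young, Emd -0.87 and -0.75, Zmpste24 -0.62 and -0.28, Sun1 0.41 and 0.40, Lmnb2 0.51 and 0.40, and Sun2 0.26 and -0.67. With the correction for length and GC content Sun2 was -0.12 and -0.62 and Lmnb2 0.21 and 0.46. Within batch B, where age could be separated, Banf1 (0.21) and Emd (0.17) had positive estimates with intervals that included 0. In the lists, 4 of 4 nesprins were higher in batch C old than in batch A young, among them Syne2 (2.15) and Syne1 (1.41), whose transcripts of over 10000 nt fall in the length class with the highest median, and Syne4, at 0 to 0.166 CPM in batch A and 0.412 to 0.589 CPM in batch C, near the level of 3 counts, and 2 of 4 lamin processing enzymes were lower (Icmt -0.58, Rce1 -0.75). Of all genes tested, 31.9% passed in each direction there.

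The balance of A-type to B-type lamins, a measure often tied to nuclear stiffness, was taken as Lmna over the sum of Lmnb1 and Lmnb2, each per kilobase. The ratio was 12.1, 13.9, 13.9 and 16.1 in batch A, 18.9 and 18.5 in batch B young, 11.8 and 13.8 in batch B old, and 10.1, 12 and 9.92 in batch C. Within batch B both old libraries lay below both young libraries (12.8 ± 1.41 against 18.7 ± 0.277, SD, n = 2 each). The log2 difference was -0.56, and a two-sided exact permutation test gave p = 0.333, the smallest p that 2 against 2 libraries allow, so that this design cannot pass. Over all libraries old had 11.5 ± 1.59 (SD, n = 5) and young 15.6 ± 2.74 (SD, n = 6), a log2 difference of -0.43 (exact permutation p = 0.0108, Benjamini-Hochberg adjusted over the 5 comparisons 0.054), in which batch and age are mixed. Between young libraries, the ratio was higher in batch B than in batch A by 0.43 (exact permutation p = 0.0667, the smallest possible, adjusted 0.111). Batch C was lower than batch B in old by 0.26 on the log2 scale (exact permutation p = 0.3, adjusted 0.333) and lower than batch A by 0.39 (exact permutation p = 0.0571, adjusted 0.111). None of the 5 comparisons passed after adjustment.

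**Figure D4:**
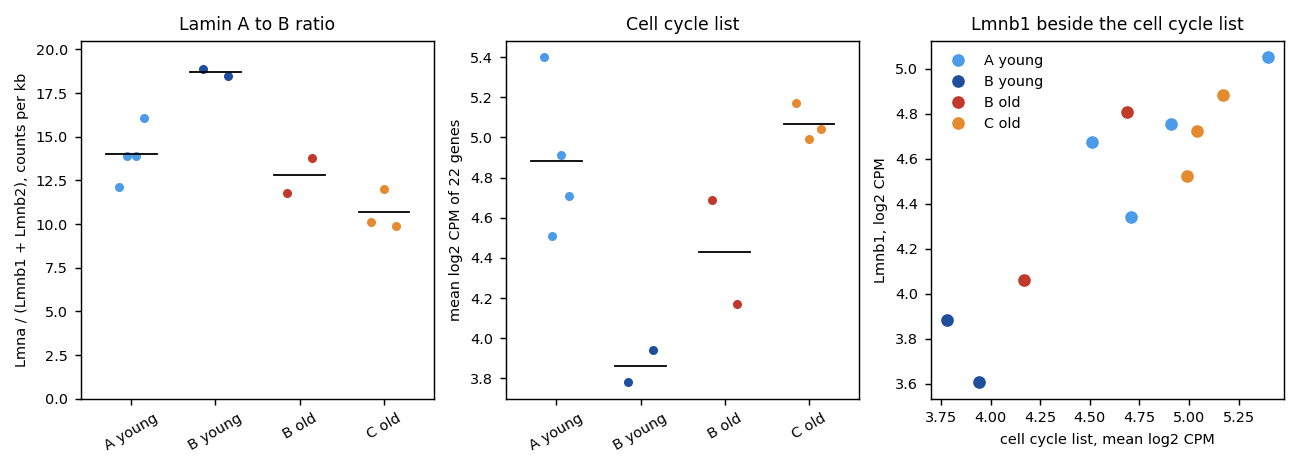
Left, ratio of Lmna to the sum of Lmnb1 and Lmnb2 (counts per kb, y axis from 0). Middle, mean log2 CPM of 22 cell cycle genes. Right, log2 CPM of Lmnb1 against that mean. Points are the 11 libraries and bars group means. Both young libraries of batch B have the highest ratio (18.5 and 18.9) and the lowest cell cycle mean (3.78 and 3.94).

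Genes whose levels ran most like those of the lamins were sought among 9058 genes with a mean of at least 10 CPM, by Pearson r of log2 CPM over the 11 libraries. This is a description, since the libraries share batches, depth and cell composition. For Lmnb1 the closest were Ccnf (0.954), which encodes cyclin F, Acta2 (0.935), the smooth muscle actin, Tpx2 (0.934), a spindle assembly factor, Mcm2 (0.933), a subunit of the replicative helicase, and Vgf (0.922). After subtraction of the group means they were Lig1 (0.966), the replicative DNA ligase, Specc1 (0.957), Tufm (0.945), Qsox2 (0.944) and Ctbp1 (0.941). For Lmna the closest were Tnk2 (0.978), Inf2 (0.963), a formin, Cux1 (0.96), Ino80e (0.958) and Slc25a10 (0.956), and after subtraction of the group means Ctbp1 (0.98), Actg1 (0.97), which encodes cytoplasmic gamma actin, Cdr2l (0.966), Dock5 (0.966) and Hnrnpm (0.964). Among the members themselves, Lmna and Lmnb1 had r = 0.71 over the libraries and 0.89 within groups, and Lmnb1 and Lmnb2 had 0.81 and 0.73. Sun1 and Sun2, which encode paralogous proteins, did not run together (-0.27, and 0.43 within groups), and Emd and Sun1 had opposite patterns (-0.86, and -0.49 within groups).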

How the data were processed

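Polyadenylated RNA of 11 libraries was measured. Per the labels and the methods of the study, which are written for an oxygen comparison and were assumed to hold for these libraries, the authors processed single-end reads with zUMIs, STAR and featureCounts on GRCm38. The authors deposited raw counts per gene and library, and whether molecular identifiers were collapsed or strand was used is not given in the sources used here. Members, lists and tests were chosen with earlier results of these data known.

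Counts were tested as deposited with edgeR 4.0.16 (R 4.3.3; quasi-likelihood, filterByExpr minimum count 5, TMM), two-sided, with Benjamini-Hochberg adjustment over all genes and a threshold of 0.05. Groups were taken from the sample descriptions. Standard errors came from fold change and F statistic. CPM used TMM-scaled totals, log2 CPM a prior count of 2. Of 28222 genes, 28179 matched GENCODE M21 (GRCm38), the source of coordinates (1-based) and transcript lengths. Myog of the muscle list was not found. Promoter letters are from RefSeq. Alternatives were limma-trend 3.58.1, DESeq2 1.42.0, RLE factors, scaling by library totals, no filter or a minimum count of 10, a replicate block, a 4-group fit, batch B alone, each library left out, and a loess correction (span 0.3) for length and GC content. The last was applied to the other lists after the data were seen. Of the other lists, at most the 3 genes with the smallest p were named for age, and at most 2 per direction past the threshold for batches; other genes were named after their values were seen. For likeness, the 5 genes with the highest r were named. In simulated counts with 200 genes changed 2-fold and a dispersion of 0.015 for every gene, the age fit over 16074 genes recovered 85.5% with 4.47% of calls false. Spread in the real libraries differed by gene: in batch B young, SD over mean was 0.271% for Zmpste24 and 28.1% for Tmpo. The recovered share is therefore not the power of the age comparison. Replicate numbers did not pair the libraries.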

Additional observations from a re-analysis of the deposited data

How the results depend on the processing

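Of the counts of members called, those between batches C and B in old and between C old and A young stayed within 1.5 times under every alternative run. The members behind these counts changed, as given above for scaling by total counts. For age in batch B the count was 1 in place of 0 without a filter (Lmnb1), and 0 to 1 when single libraries were left out. For age without the batch term the count of 1 became 2 with total counts (Lmnb2 and Lbr, not Sun2), 0 with the replicate block, 3 with the length and GC correction (Lmnb2, Sun2 and Zmpste24), and 0 to 2 when single libraries were left out. For batch B against A in young the count of 3 became 1 with the replicate block (Lmnb1) and 6 in the 4-group fit (with Lmna, Lmnb2 and Tmpo added). In that comparison the correction for length and GC content gave 0.10 for Zmpste24, which lost its call, and 0.37 for Sun1, which gained one. Libraries with the same number did not deviate together (r = 0.0365 between young and old of batch B, from -0.111 to 0.135 over all group pairs), so the block carries a number only. The other signs that turned were small: Lmna for age in batch B without a filter (0), Lmna (0.07) and Zmpste24 (0.02) for age without batch and Lmna (0.09) and Zmpste24 (0.01) for C old against A young with total counts, and, with the length and GC correction, Tmpo for age without batch (-0.12), Lbr for B against A (-0.06), Lmna (-0.10) and Sun2 (-0.12) for C against B, and Lbr (-0.11) and Tmpo (-0.09) for C old against A young. Banf1 for B against A was -0.01 in the 4-group fit, and Lmnb1 for C old against A young -0.07 with the replicate block. When single libraries were left out, values ranged from -0.13 to 0.14 (Lmna), -0.02 to 0.48 (Banf1) and -0.36 to 0.21 (Tmpo) for age in batch B, -0.05 to 0.13 (Tmpo) for age without batch, -0.26 to 0.25 (Banf1) and -0.26 to 0.06 (Emd) for B against A, -0.06 to 0.24 (Lmna) and -0.10 to 0.66 (Lmnb1) for C against B, and -0.06 to 0.17 (Lmnb1) for C old against A young. The causes were not tested. Scaling by total counts moved the median of all genes by 0.22 for age without batch, 0.22 for C against B and 0.31 for C old against A young, and the share of calls that were higher from 51.9% to 86.8%, 49.6% to 62.8% and 50.1% to 72.5%, and from 51.9% to 66.3% for B against A and 31.1% to 44.8% for age in batch B. The lamin ratio kept its direction under every alternative run, and its unadjusted exact permutation p kept its side of 0.05. For age in batch B, B against A and C against B this side could not change, as the smallest possible p was 0.333, 0.0667 and 0.1. Nor could C old against A young pass with a library left out. With 2 libraries a group, batch B limits what the age comparison can show.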
